A study of Mus musculus with 8 samples.

Results

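The loss of 1 of the 2 intact Gab2 alleles was examined in the bone marrow (BM) of leukemic mice. The comparison uses the 2 AML HET and 3 AML WT mice, 5 of the 8 mice of the series, and asks which genes respond already when a single allele is missing. Whole BM was taken as total RNA, and each mouse was sequenced as a separate library. All mice were on the C57BL/6N strain and carried Mx1-Cre together with Dnmt3a+/- and Flt3ITD/ITD. By their labels they differed only at Gab2: AML WT mice were Gab2+/+, AML HET mice were Gab2+/- and the 3 AML KO mice, which serve here as a reference for the loss of both alleles, were Gab2-/-. Mx1-Cre is driven by an interferon-responsive promoter and deletes the floxed Dnmt3a allele in blood-forming and other cells, and the Gab2 allele is a constitutive knockout in which a neomycin cassette takes the place of several exons. The age of the sequenced mice is not stated for these libraries.

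Gab2 is a scaffolding adaptor. It has no enzymatic activity of its own, becomes phosphorylated below receptor tyrosine kinases and cytokine receptors, and then docks PI3 kinase and the phosphatase Shp2 (encoded by Ptpn11), which link the receptor to Akt and to Ras and ERK. FLT3 with an internal tandem duplication signals without its ligand, and DNMT3A writes DNA methylation in stem cells. The combination of both lesions drives acute myeloid leukemia (AML), in which immature myeloid cells replace the red cell, platelet and granulocyte precursors of normal marrow.

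The libraries held between 28009258 and 39266815 counts over 13305 genes. Levels are given as CPM, which are counts relative to the library size scaled by edgeR's TMM method, and differences as log2 fold changes from 1 edgeR quasi-likelihood fit over all 8 mice, with Benjamini-Hochberg adjustment over all genes. Markers of the labelled tissue were abundant in all 5 mice: Mpo, the granule peroxidase of immature granulocytes, lay between 2840 and 3211 CPM, and Lyz2, a lysozyme of myeloid cells, between 9987 and 11316 CPM. Genes of the Y chromosome were counted in all 8 mice.

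Gab2 itself, on chromosome 7 from 97081586 to 97308946 (GRCm38), was lower with each missing allele. It was counted at 93.9, 68.5 and 61.6 CPM in the AML WT mice and at 55.8 and 50.8 CPM in the AML HET mice, against 35.0, 47.2 and 40.2 CPM in the AML KO mice. Both AML HET mice lay below every AML WT mouse and above every AML KO mouse. The log2 fold change against AML WT was −0.49 with a standard error of 0.20 (edgeR, unadjusted p = 0.0380 and adjusted p = 0.990), and −0.29 without AML WT replicate 1. An exact two-sided permutation test on the CPM gave p = 0.2, the smallest that 2 mice against 3 allow. The remaining reads in AML KO mice cannot be placed on single exons from counts per gene.

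Few genes passed the test for the loss of 1 allele. At an adjusted p under 0.05, 3 of the 13305 genes (0.0225%) rose in AML HET BM and 0 fell. An unadjusted p under 0.05 was reached by 329 genes (2.47%), 220 of them higher (1.65%) and 109 lower (0.819%) in AML HET BM. The 2 AML HET mice were apart from all 3 AML WT mice at 18.1% of genes, at 9.53% on the higher and at 8.61% on the lower side. DESeq2 called 59 genes on the same counts, 50 higher and 9 lower, and limma-voom called 1. For comparison, 278 genes (2.09%) passed between AML KO and AML WT BM, 235 higher (1.77%) and 43 lower (0.323%), a contrast that shares the AML WT mice. The median log2 fold change of all genes was −0.01, and the 2 AML HET mice differed by more than 1.5-fold from each other at 1146 genes.

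**Figure D1:**
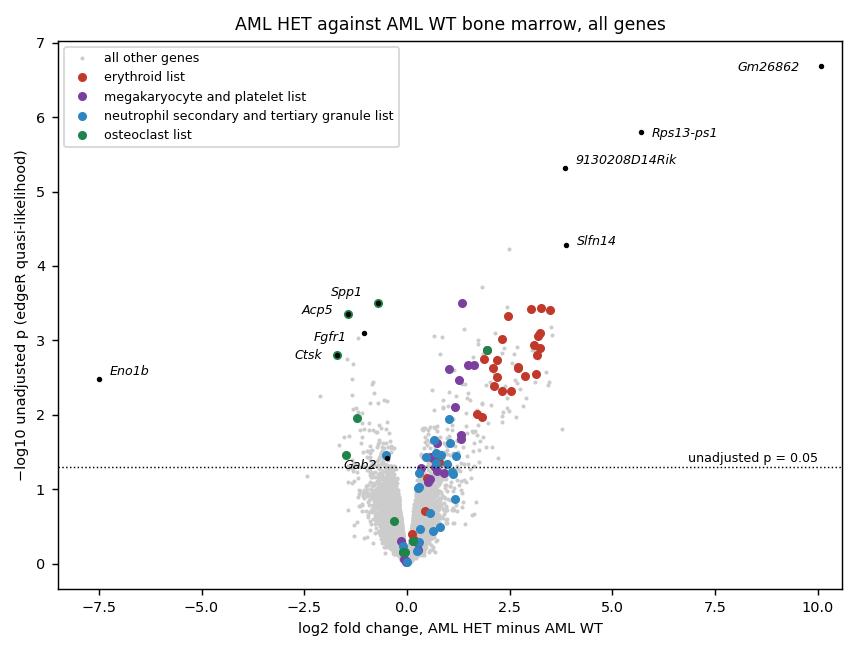
Each point is 1 of 13305 genes, with the log2 fold change of AML HET against AML WT BM on the x axis and the −log10 of the unadjusted edgeR p on the y axis. The fitted value of Gm26862 depends on the prior count, since no AML WT mouse had a count, and 26 of the 30 erythroid genes lie to the right above the dotted line while Spp1, Acp5 and Ctsk lie to the left.

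The gene with the smallest p was Gm26862, a noncoding gene on chromosome 7 from 93006982 to 93104789. It had 0 counts in all 3 AML WT mice and 3.65 and 4.75 CPM in the AML HET mice. The AML KO mice were at 5.30, 4.66 and 4.74 CPM. Every mouse with a knockout allele thus had the transcript and no AML WT mouse did, and the AML HET mean was at least 44.3-fold higher than AML WT, taking the 3 counts that a count of 0 allows in the smallest AML WT library (adjusted p = 0.00270, edgeR). AML HET replicate 2 lay within the range of the AML KO mice and replicate 1 below it. It was also the 1 gene (0.00752%) with an adjusted p under 0.05 against the point midway between AML WT and AML KO on the log2 scale, but nothing is read from this, since the prior count sets that point where all AML WT mice are at 0. The annotated Gm9934 and Fam181b overlap it and are not in the count table.

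Rps13-ps1, a processed pseudogene of the ribosomal protein gene Rps13, is on chromosome 8 from 87047689 to 87048226. It measured 1.57, 1.64 and 1.62 CPM in the AML WT mice and 78.6 and 88.7 CPM in the AML HET mice. In AML KO mice it was at 327, 70.6 and 164 CPM. AML HET and AML WT mice were far apart, while the AML HET mice lay inside the AML KO range. This amounted to 5.69 on the log2 scale, with a standard error of 0.55 (edgeR, adjusted p = 0.0106). The call was lost without AML WT replicate 1 (adjusted p = 0.163), AML WT replicate 2 (0.119), AML HET replicate 1 (0.0504) or AML HET replicate 2 (0.0656), and with limma-voom (0.224). Reads of a processed pseudogene can be shared with the parent gene, so this value is uncertain, and Rps13 itself, at 559 to 716 CPM in AML WT and 655 and 765 CPM in AML HET mice, differed by only 0.15 (adjusted p = 0.990).

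9130208D14Rik, an unprocessed pseudogene, lies on chromosome 7 from 105824223 to 105831515. Its AML WT mice had 0.738, 0.316 and 0.490 CPM and its AML HET mice 9.47 and 5.67 CPM, with 3.96, 3.82 and 6.63 CPM in AML KO mice. Here the AML HET mean, 7.57 ± 2.68 CPM (SD, n = 2), was above each of the AML KO values. On the log2 scale it was 3.85 higher than in AML WT, with a standard error of 0.42 (edgeR, adjusted p = 0.0215). This call was lost without AML WT replicate 2 (adjusted p = 0.127), AML WT replicate 3 (0.106), AML HET replicate 1 (0.111) or AML HET replicate 2 (0.0656), and with limma-voom (0.0915). All 3 genes are therefore noncoding or pseudogene entries, and 2 of them share the chromosome of Gab2.

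**Figure D2:**
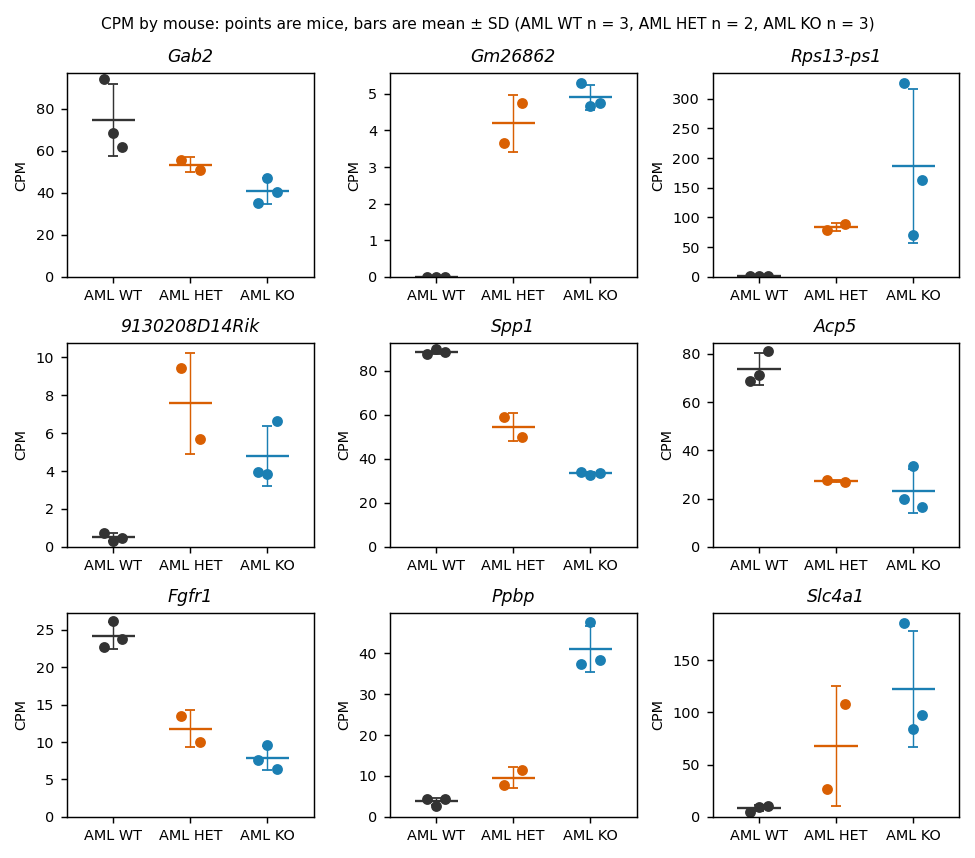
CPM (y axis, from 0) of 9 genes in single mice, with the mean and SD of AML WT (n = 3), AML HET (n = 2) and AML KO (n = 3). In the top row Gab2 steps down with each allele, whereas Gm26862 is at 0 in AML WT mice and at 3.65 to 5.30 CPM in all others.

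The surroundings of Gab2 were examined because a targeted allele is inherited together with the chromosome around it. Of 76 genes in the table whose start lies within 5 Mb of the Gab2 start, 8 (10.5%) had an unadjusted p under 0.05, 6 higher and 2 lower, against 2.47% of all genes. Gab2 is one of the lower genes, and 7 of 75 (9.33%) had such a p without it. The share was 10.1% of 129 genes within 10 Mb and 8.09% of 235 genes within 20 Mb. It was 1.66% of 785 genes on the rest of chromosome 7 and 2.42% of 12285 genes elsewhere or not placed. The genes counted within 10 and 20 Mb include the beta globins Hbb-bt (log2 fold change 1.70) and Hbb-bs (2.13). Both also stand in the erythroid list described below. The median of the 76 genes was −0.03, against −0.01 over all genes.

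The other genes close to Gab2 did not pass the adjusted test in edgeR. Alg8, a glucosyltransferase of protein N-glycosylation whose start lies 0.29 Mb from that of Gab2, was the other lower gene, at 46.9, 44.8 and 51.0 CPM in AML WT, 36.1 and 36.4 CPM in AML HET and 26.0, 19.9 and 21.8 CPM in AML KO mice. Its 3 groups did not overlap, and the log2 fold change of AML HET was −0.39 (adjusted p = 0.990). Inppl1, the SHIP2 phosphatase that acts on the lipid product of PI3 kinase, was at 38.9, 43.9 and 43.3 CPM in AML WT and at 61.7 and 70.6 CPM in AML HET mice, a log2 fold change of 0.65 (adjusted p = 0.505, and 0.00924 in DESeq2). It overlaps Gm10602 on the opposite strand (0.98, unadjusted p = 0.0264), and reads of these 2 genes cannot be told apart where they overlap, since the strand setting of the counting is not known. Pak1, a kinase activated by Rac and Cdc42, was at 68.6, 61.8 and 77.0 CPM against 92.2 and 89.7 CPM, a difference of 0.40 (adjusted p = 0.990). Groups did not overlap at Inppl1 or Pak1. Gm45837 (0.61) and Gm37716 (2.33) completed the set, but both overlap annotated protein-coding genes in the same orientation, so their counts are uncertain. A gene farther off on the same chromosome, Fah, the last enzyme of tyrosine breakdown, was at 0.853 to 1.65 CPM in AML WT and at 4.49 and 4.81 CPM in AML HET mice (log2 fold change 1.83, adjusted p = 0.428). The mice's genotypes along this chromosome were not measured, and an effect of the linked chromosome and of the Gab2 allele cannot be told apart.

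**Figure D3:**
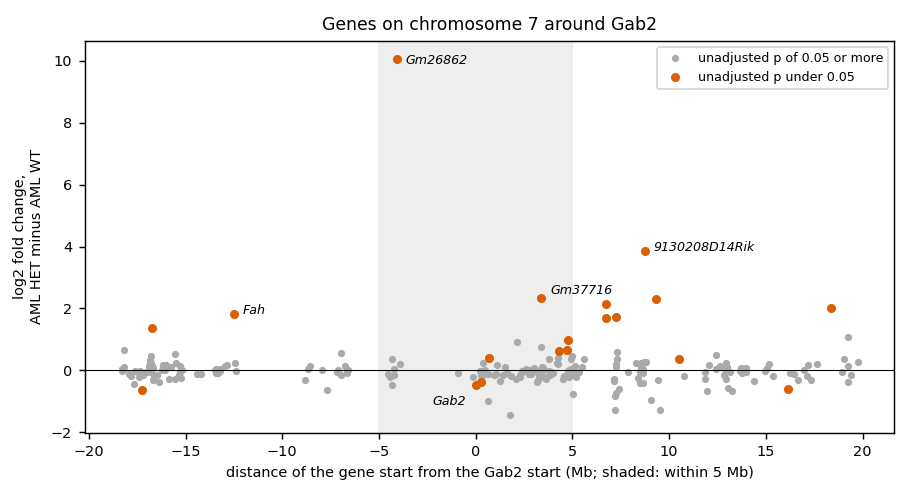
Log2 fold change of AML HET against AML WT BM (y axis) of 235 genes on chromosome 7 by the distance of their start from the Gab2 start (x axis, Mb). Orange points are the 19 genes with an unadjusted p under 0.05, among them Gm26862 at the left edge of the shaded 5 Mb window, and most grey points lie near 0.

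Genes of red cell precursors formed the broadest group with higher levels after the loss of 1 allele. Of 30 erythroid genes in the list, all 30 were higher in AML HET BM, 26 had an unadjusted p under 0.05 against 1.65% of all genes in that direction, and in 28 the AML HET and AML WT mice did not overlap (9.53% of all genes). None of the 30 passed the adjusted test in edgeR or limma-voom, and 16 passed in DESeq2, which called 59 of all 13305 genes. The median log2 fold change of the list was 2.31, against 3.44 in AML KO BM. In whole BM a larger number of red cell precursors and more RNA per precursor cannot be told apart, here and in the groups that follow.

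Slc4a1, the anion exchanger band 3 of the red cell membrane, measured 4.77, 9.77 and 10.5 CPM in AML WT mice and 27.0 and 109 CPM in AML HET mice. Both AML HET mice were above every AML WT mouse, but the second had about 4 times the level of the first. The difference was 3.03 on the log2 scale, with a standard error of 0.57 (edgeR, unadjusted p = 0.000376 and adjusted p = 0.430). At genes of the spectrin skeleton beneath that membrane, too, both AML HET mice were above every AML WT mouse. Sptb, beta spectrin, was at 3.74, 4.43 and 3.74 CPM in AML WT and at 8.94 and 34.5 CPM in AML HET mice (log2 fold change 2.46). Epb42, protein 4.2, which ties the skeleton to band 3, was at 0.369, 0.632 and 1.22 CPM against 3.33 and 13.1 CPM (3.48). Their adjusted p lay between 0.430 and 0.449.

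Globins and heme synthesis followed. Hba-a1, an adult alpha globin, was at 49.4, 57.7 and 80.2 CPM in AML WT and at 118 and 503 CPM in AML HET mice, and Hbb-bs, an adult beta globin, at 103, 113 and 141 CPM against 243 and 800 CPM. The globin copies are nearly identical to each other, and how reads were divided between them is uncertain. Alas2, which catalyses the first step of heme synthesis in erythroid cells, was at 5.53, 4.36 and 4.13 CPM against 10.5 and 36.0 CPM. The erythroid transcription factors Klf1 (0.393, 1.36 and 0.888 against 2.31 and 9.02 CPM) and Gata1 (0.639, 1.55 and 0.980 against 2.35 and 7.17 CPM) were likewise above every AML WT mouse in both AML HET mice. The smallest differences in the list were those of Fech, the last enzyme of heme synthesis (0.17), and Gypc, glycophorin C (0.13), whose groups overlapped.

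Other genes were also among the 12 with the smallest p that were higher in AML HET BM. Slfn14, a ribosome-associated endoribonuclease of the platelet and red cell lineages, was at 0.148, 0.126 and 0.367 CPM in AML WT and at 1.75 and 4.49 CPM in AML HET mice (log2 fold change 3.86, adjusted p = 0.155). The pseudogene Mrpl48-ps stood in this group as well (0.295, 0.316 and 0.367 against 1.65 and 2.04 CPM, adjusted p = 0.155), but it resembles Mrpl48, which differed by 0.09, and is uncertain for that reason.

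The size of the erythroid difference depended on the mouse. The second AML HET mouse was above the first at 29 of the 30 genes. Relative to the AML WT mean, the list median was 1.17 in the first AML HET mouse and 2.99 in the second, on the log2 scale, against −0.29, 0.11 and 0.20 in the AML WT mice. The AML KO mice were at 4.19, 2.51 and 2.94, so the second AML HET mouse lay within their range and the first below it. Without AML HET replicate 2 the list median of the fold changes was 1.15. Of the 30 genes, 2 differed between AML KO and AML HET BM at an unadjusted p under 0.05, against 5.86% of all genes. With the AML HET mice this far apart, few such p do not mean a small difference. From midway between AML WT and AML KO on the log2 scale, 7 of the 30 departed, against 1.13% of all genes. The list median of this departure was 0.76, on the AML KO side.

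**Figure D4:**
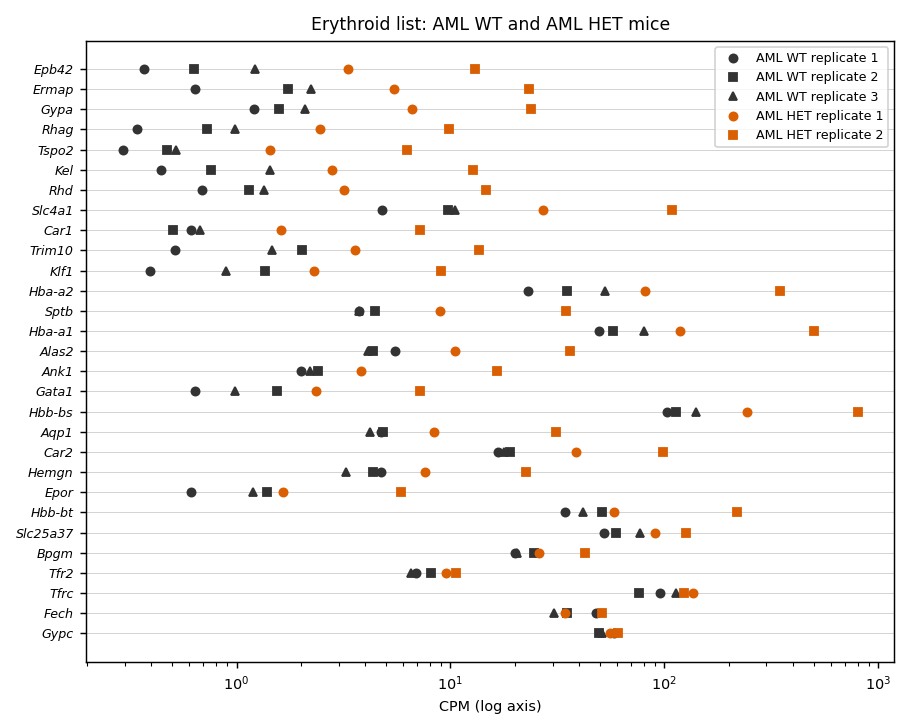
CPM on a log axis (x) of 29 of the 30 erythroid list genes (rows, by fold change) in each AML WT and AML HET mouse. At 27 of them both AML HET mice lie to the right of all AML WT mice, and the second AML HET mouse, drawn as a square, lies farthest to the right at most of them.

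The sequence before the start of these genes is shown because the listed genes were higher together and GATA1, the master factor of red cell precursors, binds a known short motif. RefSeq sequence on GRCm38.p6 was at hand for 21 of the 30 genes. AGATAA or TGATAA, on either strand, occurred in the 250 bases before the start of 13 of the 21 genes (61.9%), and in 9.354% of 10006 such windows of all counted genes. The shares were 6 of 17 (35.29%) for the megakaryocyte and platelet list, 4 of 22 (18.18%) for the neutrophil secondary and tertiary granule list and 1 of 4 (25.0%) for the osteoclast list. A match describes letters only and is not a site of binding, and a window without a match says nothing about the factor. These shares depend on which genes were put in a list and not on their levels in these mice. They therefore say nothing about the loss of an allele. The first 4 listed genes by p with a window were Epb42 (chr2:121036878-121037127, minus strand), Sptb (chr12:76710548-76710797, minus strand), Rhag (chr17:40810899-40811148, plus strand), a membrane channel of the Rh complex, and Alas2 (chrX:150547167-150547416, plus strand). They are written 5′ to 3′ up to the base before the start, with the motif in capitals on whichever strand it was found.
Epb42: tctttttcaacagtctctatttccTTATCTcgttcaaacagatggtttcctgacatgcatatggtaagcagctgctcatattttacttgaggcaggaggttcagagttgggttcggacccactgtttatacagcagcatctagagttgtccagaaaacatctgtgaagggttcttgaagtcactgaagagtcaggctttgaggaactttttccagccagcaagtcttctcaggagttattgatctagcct
Sptb: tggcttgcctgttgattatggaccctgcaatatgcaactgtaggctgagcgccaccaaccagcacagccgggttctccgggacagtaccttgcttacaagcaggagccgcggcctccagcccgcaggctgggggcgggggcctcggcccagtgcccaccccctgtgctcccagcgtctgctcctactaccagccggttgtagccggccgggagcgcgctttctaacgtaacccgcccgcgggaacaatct
Rhag: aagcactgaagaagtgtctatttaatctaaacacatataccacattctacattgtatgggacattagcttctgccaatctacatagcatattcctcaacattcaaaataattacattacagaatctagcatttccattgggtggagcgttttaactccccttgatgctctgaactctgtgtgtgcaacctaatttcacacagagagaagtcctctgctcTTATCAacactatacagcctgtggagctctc
Alas2: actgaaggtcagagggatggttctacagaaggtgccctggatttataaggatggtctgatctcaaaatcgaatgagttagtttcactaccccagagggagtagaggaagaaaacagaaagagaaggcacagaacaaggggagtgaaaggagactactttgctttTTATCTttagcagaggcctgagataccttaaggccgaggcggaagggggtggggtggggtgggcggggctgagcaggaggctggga

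In Epb42, Rhag and Alas2 the motif began 226, 31 and 86 bases before the start, and Sptb had no match. Rhag was at 0.344, 0.727 and 0.980 CPM in AML WT and at 2.45 and 9.85 CPM in AML HET mice. Its log2 fold change was 3.18.

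Platelet precursors showed a smaller difference at 1 missing allele. Of 24 megakaryocyte and platelet genes, 19 were higher in AML HET BM, 10 of them and none of the lower ones had an unadjusted p under 0.05 (1.65% of all genes on the higher side), and the groups were apart at 16, all higher (9.53% of all genes). The median log2 fold change was 0.63, and it was 2.20 in AML KO BM. None passed the adjusted test in edgeR or limma-voom, and 4 passed in DESeq2, which called 59 of all 13305 genes. Without AML HET replicate 2 the median was 0.40. The list medians of the single mice were 0.41 and 0.67 in AML HET, above −0.03 to 0.07 in AML WT and below 1.93 to 2.19 in AML KO mice.

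Ppbp, a chemokine precursor of the platelet alpha granule, measured 4.35, 2.72 and 4.26 CPM in AML WT, 7.85 and 11.3 CPM in AML HET and 37.4, 47.6 and 38.4 CPM in AML KO mice. The 3 groups did not overlap, and the log2 fold change of AML HET was 1.34 (standard error 0.25, adjusted p = 0.430). Pf4, platelet factor 4 of the same granule, was at 2.24, 2.97 and 3.89 CPM against 6.00 and 12.7 CPM (1.63, adjusted p = 0.555). Gp5, a subunit of the receptor for von Willebrand factor, was at 0.910, 0.853 and 1.56 CPM against 2.17 and 3.98 CPM (1.48, adjusted p = 0.555). Between AML KO and AML HET BM, 21 of the 24 genes had an unadjusted p under 0.05 (5.86% of all genes), and 2 departed from the midpoint (1.13% of all genes). For the erythroid list the corresponding counts were 2 and 7 of 30. The AML HET mice were farther apart there, and few such p do not mean a small difference. The standard error of AML KO against AML HET was 0.56 at Slc4a1 and 0.26 at Ppbp. Against the midpoint, the list median was 0.76 for the erythroid and −0.37 for the megakaryocyte and platelet list. The difference between these lists was not tested.

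Genes of maturing neutrophils were likewise at higher levels, with a wide spread between the AML WT mice. Secondary and tertiary granules are made late in neutrophil maturation, and their list of 25 genes also holds other late neutrophil genes such as Cxcr2. Of the 25 genes, 22 were higher in AML HET BM. An unadjusted p under 0.05 was reached by 9 of these and by 1 lower gene, against 1.65% and 0.819% of all genes. The median was 0.63 against 2.05 in AML KO BM. Both AML HET mice were above every AML WT mouse at 13 genes (9.53% of all genes) and below at 1 (8.61%). None passed the adjusted test in edgeR, DESeq2 or limma-voom. Pglyrp1, a granule protein that binds bacterial cell walls, measured 25.1, 47.2 and 66.5 CPM in AML WT and 99.8 and 89.4 CPM in AML HET mice (1.03, adjusted p = 0.990). Ngp, neutrophilic granule protein, was at 231, 487 and 784 CPM against 917 and 1171 CPM (1.06). Fcnb, ficolin B, was at 35.9, 45.2 and 42.2 CPM against 59.0 and 70.5 CPM (0.66). The groups were apart at these 3 genes. For the list as a whole, the medians of the AML WT mice were −0.50, 0.01 and 0.63, and the AML HET mice, at 0.54 and 0.78, overlapped with the third. The median fold change of the list was 0.38 without AML WT replicate 1 and 0.94 without AML WT replicate 3. Mmp8, a neutrophil collagenase, was the gene at a lower level (172, 132 and 106 against 96.6 and 95.8 CPM). Primary granules are made at the promyelocyte stage, and the 6 genes of their list had a median of 0.02. Its only gene with an unadjusted p under 0.05 in edgeR was Cebpe (0.68), against 1.65% of all genes in that direction. Cebpe encodes a transcription factor and not a granule protein. Of the 25 late genes, 21 had an unadjusted p under 0.05 between AML KO and AML HET BM (5.86% of all genes).

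**Figure D5:**
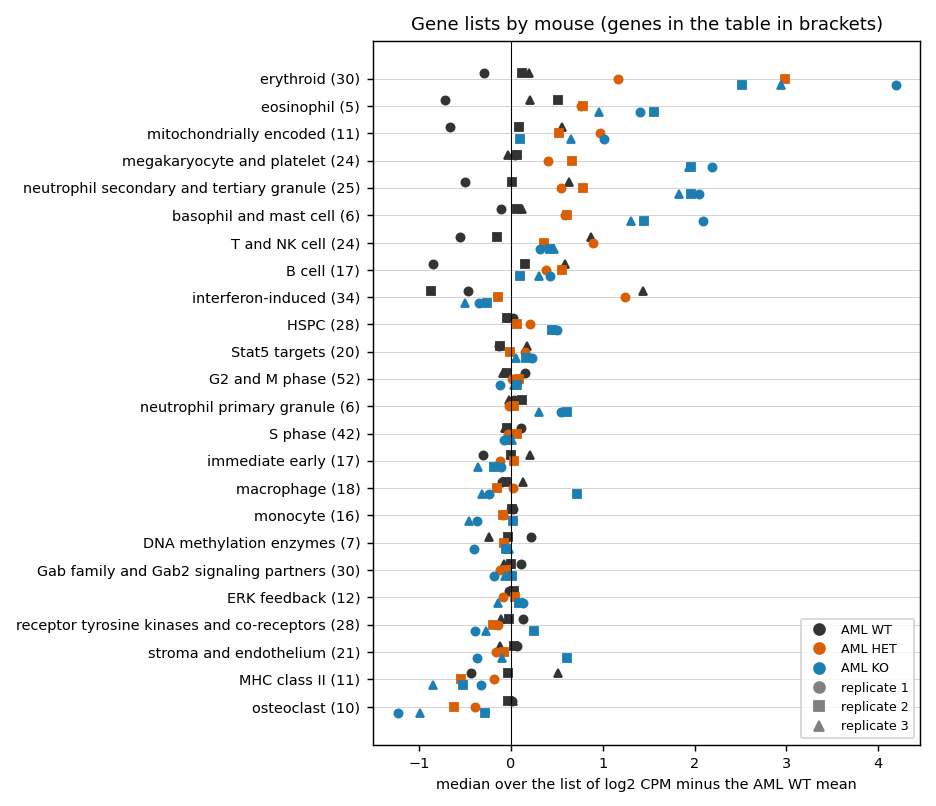
For each gene list (rows, with its number of genes in the table), the median over its genes of log2 CPM minus the AML WT mean (x axis) in every mouse, by group (color) and replicate (shape). The AML HET mice stand to the right of the AML WT mice at the erythroid, megakaryocyte and platelet, basophil and mast cell, eosinophil and stem and progenitor (HSPC) lists. They stand to the left at the osteoclast, monocyte and receptor tyrosine kinase lists. The gaps are small at the HSPC, monocyte and receptor lists. The AML WT mice spread widely at the interferon-induced, lymphoid and mitochondrially encoded lists.

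Genes of osteoclasts, the bone-resorbing cells of the monocyte lineage, had lower levels in AML HET mice. Of 10 genes in the table, 8 were lower in AML HET BM, 5 of them at an unadjusted p under 0.05 (0.819% of all genes in that direction), and the median was −0.51 against −0.93 in AML KO BM. Relative to the AML WT mean, the list medians were −0.40 and −0.62 in the AML HET mice and 0.01, −0.03 and 0.02 in the AML WT mice. In the AML KO mice they were −1.23, −0.29 and −0.99. Acp5, the tartrate-resistant acid phosphatase used to stain osteoclasts, measured 68.8, 71.1 and 81.1 CPM in AML WT mice and 27.6 and 27.1 CPM in AML HET mice. Both AML HET mice were far below the AML WT range and within that of the AML KO mice (19.9, 33.6 and 16.4 CPM). Its log2 fold change of −1.43 had a standard error of 0.27 (edgeR, adjusted p = 0.449). Ctsk, cathepsin K, which digests bone collagen, was at 72.6, 64.0 and 70.5 CPM against 23.8 and 19.0 CPM (−1.69, adjusted p = 0.512), with 10.40, 24.5 and 8.69 CPM in AML KO mice. In the fit of the AML HET and AML WT mice alone, Acp5 (adjusted p = 0.0379) and Ctsk (0.0343) passed, and both passed in DESeq2 over all mice.

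Spp1, osteopontin, differed little between the mice of a group. It measured 87.6, 89.7 and 88.3 CPM in AML WT mice, 59.1 and 49.96 CPM in AML HET mice and 34.0, 32.7 and 33.5 CPM in AML KO mice. The 3 groups were ordered by the number of intact alleles without overlap. A log2 fold change of −0.70, with a standard error of 0.13 and an unadjusted p of 0.000316, did not pass adjustment in edgeR (0.430) and passed in DESeq2. At Acp5, AML KO against AML HET BM differed by −0.23 after −1.43 for AML HET against AML WT BM. Of the 2 osteoclast list genes that were higher, only Car2, carbonic anhydrase 2, had an unadjusted p under 0.05 in edgeR. Red cell precursors also make it, and it stands in the erythroid list as well. Car2 was at 16.6, 19.0 and 17.8 CPM against 38.8 and 98.8 CPM. Between AML KO and AML WT BM, 2 genes of the osteoclast list were higher and 3 lower at an adjusted p under 0.05 (1.77% and 0.323% of all genes). The general monocyte list, with 16 genes and a median of −0.06, had 0 genes at an unadjusted p under 0.05 in edgeR.

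Other genes with the smallest p among those at lower levels in AML HET BM included surface receptors of myeloid cells and secreted proteins of the matrix. Clec4n, the lectin Dectin-2 of myeloid cells, was at 4.67, 3.67 and 5.08 CPM in AML WT and at 2.07 and 1.21 CPM in AML HET mice (log2 fold change −1.45, adjusted p = 0.512). Cd209d, a lectin of the DC-SIGN family, was at 9.47, 10.9 and 12.9 CPM against 5.57 and 3.38 CPM (−1.31, adjusted p = 0.555). Cd33, a sialic acid-binding receptor of myeloid cells, was at 45.4, 36.2 and 25.8 CPM against 21.98 and 19.4 CPM (−0.79, adjusted p = 0.808). None of these groups overlapped. Htra3, a secreted serine protease, and Mgp, the matrix Gla protein that inhibits calcification, were lower by −1.19 and −1.34. Shtn1 (−0.83), which guides the growth of axons, and Adra2a (−1.33), an alpha-2 adrenergic receptor, completed the set. The list of stroma and endothelium had a median of −0.25 with 7 genes higher and 14 lower.

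Receptor tyrosine kinases and co-receptors, the level at which Gab2 is recruited, were for the most part slightly lower. Of 42 listed genes 28 were in the table, Ret not among them, and 21 of these were lower in AML HET BM. Their median was −0.25, and it was −0.10 in AML KO BM. Relative to the AML WT mean, the mouse medians were −0.14 and −0.19 in AML HET and 0.13, −0.02 and −0.10 in AML WT mice. In AML KO mice they were −0.39, 0.25 and −0.28. An unadjusted p under 0.05 was reached by 4 genes in edgeR, all lower (0.819% of all genes in that direction). Fgfr1, a receptor for fibroblast growth factors, measured 22.7, 26.2 and 23.8 CPM in AML WT mice and 13.5 and 10.01 CPM in AML HET mice, with 7.59, 9.54 and 6.42 CPM in AML KO mice. All 3 groups were apart, and the log2 fold change of AML HET was −1.04 (standard error 0.22, adjusted p = 0.505, and 0.00327 in DESeq2). Ddr1, a receptor for collagen, was at 26.4, 28.3 and 32.0 CPM against 18.7 and 13.6 CPM (−0.84, adjusted p = 0.700). Mst1r, the receptor of macrophage-stimulating protein, had the largest p of the 4 (0.0488, −0.54).

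Gfra2, a co-receptor of Ret for neurturin, was at 2.53, 2.78 and 2.97 CPM in AML WT mice, at 1.16 and 0.765 CPM in AML HET mice and at 0.164, 0.910 and 0.354 CPM in AML KO mice. AML HET mice lay below all AML WT mice, and 1 AML KO mouse lay between them. Its difference of −1.52 on the log2 scale had a standard error of 0.55 (edgeR, unadjusted p = 0.0200 and adjusted p = 0.990). Axl, a receptor of the Tyro3, Axl and Mertk family that binds Gas6, was at 82.4, 61.6 and 80.7 CPM against 59.4 and 49.6 CPM, with 19.6, 37.1 and 20.5 CPM in AML KO mice. Its groups did not overlap, and the AML HET mean was nearer to the AML WT than to the AML KO mean. Its departure from their midpoint, 0.31 on the log2 scale, was not clear (edgeR, unadjusted p = 0.221). The difference from AML WT was −0.46 on the log2 scale with a standard error of 0.27 (edgeR, unadjusted p = 0.125). Between AML KO and AML HET BM the difference was −1.08. Flt3, the gene that carries the duplication, differed by −0.21 (127.5, 125.5 and 127.9 against 118.7 and 101.2 CPM, adjusted p = 0.990).

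Transcripts of the signaling chain around Gab2 differed little. In a list of 30 genes of the Gab family and of partners that bind Gab2 or act with it, the median was −0.11, and Gab2 was the only gene with an unadjusted p under 0.05. The relatives Gab1 (−0.16) and Gab3 (−0.15) were not higher in AML HET BM, although both signs turned positive without AML WT replicate 1. Of 20 targets of Stat5, a transcription factor that FLT3 with an internal tandem duplication activates, 15 were higher and 5 lower with a median of 0.07 and 0 at an unadjusted p under 0.05. Cish, a negative feedback regulator in that list, was at 24.6, 24.8 and 29.7 CPM against 32.9 and 31.2 CPM (0.28), and Ccnd1, cyclin D1, at 17.5, 16.2 and 26.5 CPM against 16.0 and 10.2 CPM (−0.62). Of 12 genes that ERK signaling induces as feedback, Spred2, an inhibitor of Ras, was the only gene with an unadjusted p under 0.05, at a difference of −0.64. The 17 immediate early genes had a median of −0.04.

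No difference was detectable in the cell cycle lists. Of 42 S phase genes and 52 G2 and M phase genes, 0 had an unadjusted p under 0.05 in edgeR or limma-voom, and 1 had in DESeq2, with medians of −0.01 and 0.04. Ndc80, a kinetochore protein, had the smallest p of these lists, at 70.5, 64.5 and 65.8 CPM in AML WT and at 80.4 and 81.3 CPM in AML HET mice (0.27). Of 28 stem and progenitor genes, 5 were higher at an unadjusted p under 0.05 (1.65% of all genes), and the median was 0.11. They included Prom1, Gfi1b, Tal1 and Gata2, of which Gfi1b, Tal1 and Gata2 encode transcription factors that red cell and platelet precursors use too. Prom1, a surface marker of progenitors, was at 2.95, 3.19 and 5.05 CPM against 7.22 and 6.47 CPM (0.88, adjusted p = 0.990).

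Some lists varied with single mice. The median of 34 interferon-induced genes was 1.44 in AML WT replicate 3 and 1.24 in AML HET replicate 1, but −0.47 and −0.87 in the other AML WT mice and −0.15 in AML HET replicate 2, and 0 of the 34 had an unadjusted p under 0.05. All 11 mitochondrially encoded genes were higher in AML HET BM, with a median of 0.67 and 5 at an unadjusted p under 0.05 (1.65% of all genes in that direction). Their summed level was 9889, 16614 and 22998 CPM in AML WT mice and 30541 and 26026 CPM in AML HET mice. The AML WT mice had the same order here as in the median of the late neutrophil granule genes, lowest in replicate 1 and highest in replicate 3, and whether the mitochondrially encoded level bears on those genes was not tested.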

How the data were processed

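The 8 libraries, 1 per mouse, were sequenced on an Illumina HiSeq4000 (3 AML WT, 3 AML KO and 2 AML HET). The authors deposited raw counts per gene without normalization. The submitters' processing notes name Trimmomatic 0.36, STAR 2.5.2b and the build mm10. The counting tool, annotation and strand setting are not given in the sources used here, so reads of overlapping or antisense genes cannot be separated. The smallest sum of a gene over all mice was 106 counts, and 15 genes had a 0 in at least 1 mouse.

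The tests ran in edgeR 4.0.16 under R 4.3.3 (TMM, robust quasi-likelihood fit with genotype as the only term, all 8 mice, Benjamini-Hochberg adjustment over 13305 genes). Standard errors were derived from the F statistic. filterByExpr removed 0 genes. The paper's text does not name its test. Where the AML HET level departed from the midpoint was tested as AML HET minus the mean of AML WT and AML KO. CPM used TMM library sizes, and list medians of single mice used log2 CPM with a prior count of 2. Intervals from a count of 0 cover counting error only. The labels do not state whether the mice were littermates or were processed together. Each p sets a difference against a spread estimated within the groups of all 8 mice, with information shared between genes. It cannot account for an effect of litter or processing. Counts were also simulated for AML HET against AML WT on 13305 genes. There the test found 49 of 100 genes changed 2-fold and 88 of 100 changed 4-fold, and called 15 unchanged genes. Each gene was drawn on its own, with AML KO at the AML WT level and no shift shared by the genes of a mouse. These numbers therefore do not give the share of genes found or wrongly called in the real mice.

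Of the identifiers, 13266 were found in GENCODE M21 (GRCm38). The comparison and the 25 gene lists were chosen with earlier results of these data known, and lists are described by counts and medians without a test. Named genes were Gab2, Axl, Gfra2 and the Gab family, all that passed the adjusted test, the 12 with the smallest p in each direction among genes without overlap, the 3 with the smallest p in each list and the 5 within 5 Mb of Gab2. Not all of these are described, and some are not reported here. Rps13, Mrpl48, Eno1b, Eno1, Flt3, Mpo, Lyz2, Hba-a1, Hbb-bs, Alas2, Klf1, Gata1, Fech, Gypc, Rhag, Mmp8, Mst1r, Tal1, Alg8 and Gm10602 were chosen after their values were seen. Alternatives were DESeq2, limma-voom, other scaling and filters, AML HET and AML WT mice alone, the replicate number as a block, other windows around Gab2 and each mouse left out in turn, where a lone AML HET mouse was assumed to vary like the other groups. The other measurements of the study were not analysed here.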

Additional observations from a re-analysis of the deposited data

How the results depend on the processing

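The number of genes that passed between AML HET and AML WT BM, 3 in the reported fit, was 59 with DESeq2, 1 with limma-voom, 5 with the AML HET and AML WT mice alone and between 1 and 5 with each mouse left out. It was 1 without AML HET replicate 2 and 5 without AML KO replicate 2. Gm26862 passed in every fit but that with the replicate block. Rps13-ps1 and 9130208D14Rik missed the threshold with limma-voom, with the block and without either AML HET mouse or AML WT replicate 2, as well as without AML WT replicate 1 and AML WT replicate 3, respectively. DESeq2 called 50 unchanged genes in simulated counts, where edgeR called 15, but those counts had no shifts shared by the genes of a mouse. With the replicate number as a block, 0 genes passed and 294 had an unadjusted p under 0.05, 0 departed from the midpoint, and the median near Gab2 was −0.089. Same-numbered AML WT and AML HET mice correlated at 0.08 and 0.29 in their deviations, and AML WT and AML KO mice at −0.51, −0.11 and −0.13. With only 2 AML HET mice the other pairing gives −0.08 and −0.29 by construction. The AML HET values therefore cannot decide whether the numbers are pairs. No label names them as pairs, and the reported fit did not use them as such. The number departing from the midpoint, 1 in the reported fit (Gm26862, 0.00752% of genes, where the prior count sets the midpoint since AML WT mice are at 0), was 3 with DESeq2 and 0 to 3 with each mouse left out (0 without either AML HET mouse or AML KO replicate 3), and could not be computed without the AML KO mice. The median near Gab2, −0.03, was −0.12 within 2 Mb, −0.012 with upper-quartile scaling and between −0.073 (without AML WT replicate 2) and −0.027 with each mouse left out. Without AML HET replicates 2 and 1 respectively, the median was 1.15 and 2.98 for the erythroid list, 0.40 and 0.67 for the megakaryocyte and platelet list and −0.40 and −0.62 for the osteoclast list, the extremes over all mice left out. Without AML WT replicate 1, signs turned for Gab1 (range over mice left out −0.39 to 0.13), Gab3 (−0.31 to 0.090), Mrpl48 (−0.020 to 0.18), Pik3cg (−0.42 to 0.0052) and Tet1 (−0.54 to 0.12), and without AML HET replicate 1 for Trim30a (−0.24 to 0.83), none past the threshold. Genes at an unadjusted p under 0.05 numbered 130 without AML HET replicate 2 and 690 without AML WT replicate 3. The causes were not tested. At the 15 genes with a count of 0 in at least 1 mouse, depth limits the fitted fold change, which there depends on the prior count.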

Other observations

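Rare granulocytes were also represented. All 6 basophil and mast cell genes in the table were higher in AML HET BM, 3 of them at an unadjusted p under 0.05 (1.65% of all genes in that direction), with a median of 0.59 and 1.54 in AML KO BM. Prss34, a serine protease of basophils, measured 1.67, 5.37 and 8.24 CPM in AML WT, 28.7 and 23.6 CPM in AML HET and 144, 67.3 and 75.0 CPM in AML KO mice. The 3 groups did not overlap, and the log2 fold change of AML HET was 2.37 (adjusted p = 0.512, edgeR). Ms4a2, a chain of the high-affinity IgE receptor, was at 0.959, 0.980 and 1.07 CPM against 3.61 and 1.78 CPM (1.42, adjusted p = 0.700). Of 5 eosinophil genes, Prg2, the major basic protein, was higher (1.45, 5.25 and 4.53 against 12.8 and 13.99 CPM, 1.85) and Ear2, a ribonuclease, was lower (42.3, 77.3 and 63.9 against 39.4 and 34.5 CPM, −0.73).

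Lymphoid genes were mostly higher with wide overlap. Of 24 T and NK cell genes 23 were higher in AML HET BM, with a median of 0.51 and 3 at an unadjusted p under 0.05, against 1.65% of all genes. Lck, a kinase of the T cell receptor, was at 11.998, 14.003 and 18.1 CPM in AML WT and at 27.0 and 20.1 CPM in AML HET mice (0.68, adjusted p = 0.990). The list medians of the AML WT mice ran from −0.55 to 0.87, and those of the AML HET mice, 0.89 and 0.36, were within or just above that range. The 17 B cell genes had a median of 0.37, with 0 at an unadjusted p under 0.05. Of 11 MHC class II genes 10 were lower (median −0.41), but the mice overlapped. Their list medians were −0.43, −0.04 and 0.51 in AML WT and −0.19 and −0.54 in AML HET mice. Ciita, the transactivator of these genes, was the only 1 with an unadjusted p under 0.05 (0.819% of all genes in that direction). It was at 54.7, 58.1 and 67.4 against 43.9 and 33.5 CPM (−0.63, unadjusted p = 0.0443, edgeR). Macrophage genes had a median of −0.04 with examples in both directions. Mrc1, the mannose receptor, was at 169, 154 and 192 CPM against 137 and 109 CPM (−0.48), and Slc40a1, the iron exporter ferroportin, at 10.3, 8.63 and 13.3 CPM against 17.1 and 14.7 CPM (0.57). The 7 DNA methylation enzymes, with a median of −0.09, had 0 genes at an unadjusted p under 0.05.

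Eno1b followed neither group. It measured 65.9, 0.221 and 71.1 CPM in the AML WT mice, 0.140 and 0.351 CPM in the AML HET mice and 49.3, 65.3 and 50.2 CPM in the AML KO mice. AML WT replicate 2 was thus near the AML HET mice and the others were near the AML KO mice. The log2 fold change was −7.50 (adjusted p = 0.697, edgeR), and it passed without AML WT replicate 2 in edgeR (adjusted p = 9.4e-05) and over all mice in DESeq2 (0.00219). Eno1b is a near copy of Eno1, which lay between 594 and 863 CPM in these 5 mice, so its counts are uncertain.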
